A study of Mus musculus with 8 samples.

Results

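Transcript levels of 8 Toll-like receptors (TLRs) and of Myd88, the adaptor protein of most TLRs, were examined in whole bone marrow (BM) of leukemic mice. The mice differed in the number of functional Gab2 alleles. The genes were chosen by name, with earlier results of these data known: Tlr1, Tlr2, Tlr4, Tlr6, Tlr7, Tlr8, Tlr9, Tlr13 and Myd88. All 9 were present among the 13305 genes of the deposited table of raw read counts, after Ensembl identifiers had been matched to the symbols of GENCODE M21. Gab2 is a docking protein that is phosphorylated downstream of receptor tyrosine kinases, and the study asked how its dosage affects acute myeloid leukemia (AML) driven by Flt3-ITD. Every mouse was of strain C57BL/6N and carried Mx1-Cre, Dnmt3a+/- and Flt3ITD/ITD, with Gab2+/+ (AML WT, n = 3), Gab2+/- (AML HET, n = 2) or Gab2-/- (AML KO, n = 3) in addition. Mx1-Cre is an interferon-inducible recombinase, which according to the study's methods had recombined Dnmt3a without an inducer, and the Gab2 knockout is constitutive, so that all cells of the animal carry it. The series holds no mice without the leukemia alleles, and the age of the sequenced mice is not given in the sources used here.

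TLRs are receptors of innate immune cells that recognise conserved molecules of microbes. Tlr1, Tlr2, Tlr4 and Tlr6 act at the cell surface and bind mainly microbial lipids and lipoproteins, whereas Tlr7, Tlr8, Tlr9 and Tlr13 belong to the group that senses nucleic acids in endosomes. After ligand binding, Myd88 links the receptor to the IRAK kinases, which leads to NF-kB activation and cytokine production. In BM, monocytes, macrophages, dendritic cells, neutrophils and B cells express different sets of these receptors.

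Each mouse gave 1 library of 28009258 to 39266815 counts. The rarest of the 9 genes in any library, Tlr4, still had 222 counts there, so that the spread between mice rather than counting error limited the comparisons. Gab2 itself ranged from 61.6 to 93.9 CPM (counts scaled to TMM library sizes) in AML WT, from 50.8 to 55.8 in AML HET and from 35.0 to 47.2 in AML KO. The knockout allele replaces only part of the exons, and counts per gene cannot separate these from the others. Myeloid markers were abundant in every mouse, with at least 2840 CPM of Mpo, the myeloperoxidase of primary granules. The list of 14 monocyte markers summed to 7986 to 10684 CPM in AML WT, 7460 to 7803 in AML HET and 5564 to 8742 in AML KO. In contrast, the list of 14 mature neutrophil markers summed to 1409 to 4857 CPM in AML WT and 5577 to 6267 in AML HET. In AML KO it summed to 10735 to 17446 CPM. All 14 genes of this list were higher in AML KO than in AML WT on the fitted log2 scale, by 0.0038 to 3.14. Of these, 9 had an edgeR adjusted p under 0.05.

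The receptor genes lie on several chromosomes of the GRCm38 build, and all coordinates are those of GENCODE M21. Tlr1 (ENSMUSG00000044827, 5:64924679-64933563) and Tlr6 (ENSMUSG00000051498, 5:64952031-64960097) are neighbours on the minus strand of chromosome 5. Their transcripts are similar, with 15.4% of the 50-base words of Tlr1 and 12.3% of those of Tlr6 found in other genes, mainly in each other, so that the split of reads between them is uncertain. Tlr2 (ENSMUSG00000027995) is located at 3:83836272-83841767 on the minus strand and Tlr4 (ENSMUSG00000039005) at 4:66827584-66930284 on the plus strand. Of the endosomal receptors, Tlr7 (ENSMUSG00000044583, X:167304929-167330558) and Tlr8 (ENSMUSG00000040522, X:167242696-167264329) are neighbours on the minus strand of chromosome X. Tlr13 (ENSMUSG00000033777) lies at X:106143204-106160493 and Tlr9 (ENSMUSG00000045322) at 9:106222598-106226883, both on the plus strand. Myd88 (ENSMUSG00000032508) lies at 9:119335934-119341411 on the minus strand. Its exons overlap those of Acaa1a on the opposite strand, and since it is not given in the sources used here whether counting used the strand, reads in the overlap may belong to either gene.

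Of the 9 genes, 7 had promoter windows in the RefSeq set for GRCm38.p6, each with 250 bases before and 50 bases after a transcription start. Tlr1 and Tlr6 had 2 windows each, which gave 9 windows, and none were held for Tlr4 and Tlr7. The windows were searched on both strands for GAGGAA, the core recognised by the myeloid factor PU.1, and for TTCNNNGAA, the palindrome recognised by Stat5, which Flt3-ITD activates. GAGGAA was found in 4 of the 9 windows (Tlr1, Tlr8, Tlr9, Tlr13) and in 28.3% of 32851 windows of all genes. TTCNNNGAA was found in 4 of the 9 windows (Tlr1, Tlr6, Tlr8, Myd88) and in 8.3% of all windows. The parts of the windows outside the exons of the gene are printed 5′ to 3′ along the gene for the 3 endosomal receptors with a window, which had the widest range of levels, and for Myd88, which had the narrowest. They are Tlr8 (chrX:167264330-167264579, minus strand), Tlr9 (chr9:106222348-106222597, plus strand), Tlr13 (chrX:106143025-106143203, plus strand) and Myd88 (chr9:119340042-119340268, minus strand). Capitals mark matches to either motif on either strand.
Tlr8: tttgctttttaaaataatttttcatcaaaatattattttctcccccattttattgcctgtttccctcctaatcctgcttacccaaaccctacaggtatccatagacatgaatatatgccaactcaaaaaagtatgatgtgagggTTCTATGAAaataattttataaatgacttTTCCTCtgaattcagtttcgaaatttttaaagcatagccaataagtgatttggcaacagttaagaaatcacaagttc
Tlr9: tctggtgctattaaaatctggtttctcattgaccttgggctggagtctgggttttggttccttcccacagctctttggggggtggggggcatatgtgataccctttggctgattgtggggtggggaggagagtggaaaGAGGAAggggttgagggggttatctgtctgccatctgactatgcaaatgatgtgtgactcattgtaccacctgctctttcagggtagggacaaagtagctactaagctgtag
Tlr13: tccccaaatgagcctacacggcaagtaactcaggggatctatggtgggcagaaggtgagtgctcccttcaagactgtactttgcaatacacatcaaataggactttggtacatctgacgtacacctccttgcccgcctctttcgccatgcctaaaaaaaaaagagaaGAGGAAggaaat
Myd88: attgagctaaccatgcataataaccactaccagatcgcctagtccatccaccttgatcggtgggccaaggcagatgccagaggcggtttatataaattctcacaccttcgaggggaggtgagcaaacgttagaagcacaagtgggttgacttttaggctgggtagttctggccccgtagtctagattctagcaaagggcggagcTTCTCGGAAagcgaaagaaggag
In Tlr8 the TTCNNNGAA match began 106 bases and the GAGGAA match, on the opposite strand, 77 bases before the start. The GAGGAA match began 112 bases before the start in Tlr9 and 83 bases before it in Tlr13, and the TTCNNNGAA match of Myd88 began 46 bases before it. A second GAGGAA match of Tlr9 lies after the start and is not shown. The Myd88 stretch lies before the RefSeq start, but in an intron of a longer Myd88 model of GENCODE. These matches describe the sequence only.

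Levels were compared between genes per transcript length, as TPM computed from the counts and the union exon length of each gene. Myd88 had the highest mean over the 8 mice, with 108.5 TPM, followed by Tlr2 with 65.3 and Tlr13 with 57.5 TPM. Myd88 exceeded Tlr2 in 8 of 8 mice, while Tlr2 exceeded Tlr13 in 6 of 8, so that the order of these receptors was not the same in all mice. Tlr9 followed with 25.6 TPM and Tlr8 with 18.2 TPM. Tlr9 exceeded Tlr8 in 8 of 8 mice and was below Tlr13 in all of them. Tlr6 with 14.4 TPM, Tlr7 with 12.4 TPM and Tlr1 with 12.3 TPM could not be ranked, since Tlr6 exceeded Tlr7 in only 5 mice and Tlr7 exceeded Tlr1 in only 2. Tlr4, the lipopolysaccharide receptor, had the lowest mean, with 4.69 TPM, and was below Tlr1 in 8 of 8 mice.
The endosomal receptors varied most from mouse to mouse. The highest TPM value of Tlr9 was 8.10 times the lowest, and for Tlr8 the ratio was 6.61. Myd88 had the smallest ratio, 1.33, followed by Tlr1 with 1.87 and Tlr2 with 2.06. In TMM-scaled CPM the ratios were smaller for the receptors, with 5.51 for Tlr9, 4.49 for Tlr8, 1.81 for Tlr1 and 1.59 for Tlr2. Myd88 had 1.54 on that scale, again the smallest ratio, while Tlr1 and Tlr2 changed places.

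**Figure D1:**
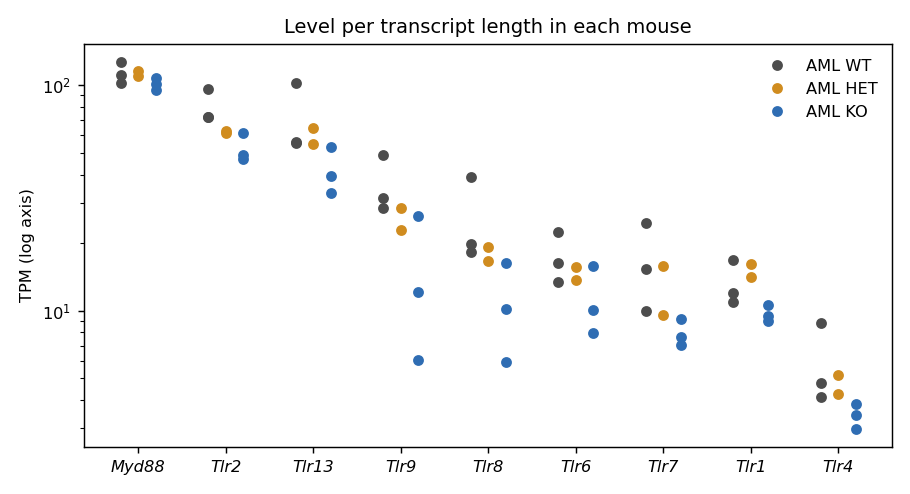
TPM of each gene in each of the 8 mice (log axis), with genes ordered by their mean and mice coloured by group. Myd88 lies between 95.1 and 126 TPM in all mice, whereas Tlr9 extends from 6.04 to 48.9 TPM.

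The surface receptors were compared first. Tlr2, which forms heterodimers with Tlr1 and Tlr6 to bind bacterial lipoproteins, was measured at 87.9, 73.7 and 77.8 CPM in AML WT mice 1 to 3, at 65.1 and 67.8 in AML HET mice 1 and 2 and at 62.9, 69.7 and 55.2 in AML KO mice 1 to 3. Every AML KO and every AML HET mouse was below every AML WT mouse, while AML KO and AML HET overlapped. The group means were 79.8 ± 7.28 (SD, n = 3), 66.5 ± 1.91 (SD, n = 2) and 62.6 ± 7.27 CPM (SD, n = 3). Tlr1, the partner of Tlr2 for triacylated lipoproteins, had 11.1, 13.6 and 20.0 CPM in AML WT, 18.5 and 17.3 in AML HET and 14.0, 11.3 and 13.2 in AML KO. For this gene the AML HET mice were above all AML KO mice and within the range of AML WT. Tlr6, the partner of Tlr2 for diacylated lipoproteins, had 25.2, 20.6 and 17.8 CPM in AML WT, 20.2 and 18.7 in AML HET and 13.2, 22.2 and 14.0 in AML KO. AML KO mouse 2 lay within the AML WT range and the other AML KO mice below it. Tlr4 had 14.8, 7.81 and 9.46 CPM in AML WT, 9.96 and 8.70 in AML HET and 7.39, 8.08 and 7.19 in AML KO. AML WT mouse 1 was far above all others, and AML KO overlapped with AML WT through AML WT mouse 2 but was below both AML HET mice.

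Among the endosomal receptors, Tlr8, a relative of Tlr7 that responds to RNA in humans, had 42.3, 24.1 and 23.4 CPM in AML WT, 23.7 and 21.8 in AML HET and 9.42, 21.9 and 13.7 in AML KO. Every AML KO mouse was below every AML WT mouse, although AML KO mouse 2 missed the lowest AML WT mouse only narrowly. The group means of Tlr8 were 30.0 ± 10.7 (SD, n = 3), 22.8 ± 1.35 (SD, n = 2) and 15.0 ± 6.33 CPM (SD, n = 3). Tlr9, the receptor for DNA with unmethylated CpG, had 51.3, 33.8 and 39.5 CPM in AML WT, 34.2 and 29.1 in AML HET and 9.32, 34.4 and 15.8 in AML KO. AML KO mice 1 and 3 were far below all other mice, whereas AML KO mouse 2 lay within the AML WT range. The means of Tlr9 were 41.5 ± 8.95 (SD, n = 3), 31.6 ± 3.62 (SD, n = 2) and 19.9 ± 13 CPM (SD, n = 3). Tlr7, the receptor for single-stranded RNA, had 30.2, 13.7 and 22.3 CPM in AML WT, 22.3 and 14.3 in AML HET and 12.8, 14.2 and 11.6 in AML KO. The AML KO mice lay close together, below both AML HET mice, and only AML WT mouse 2 reached down to them. Tlr13, which detects bacterial ribosomal RNA, had 133 CPM in AML WT mouse 1, 80.8 and 86.3 in the other AML WT mice, 96.5 and 86.2 in AML HET and 63.6, 86.4 and 64.0 in AML KO. Again AML KO mouse 2 fell within the AML WT range and AML KO mice 1 and 3 below all others.
Myd88 differed from the receptors. It had 79.5, 96.9 and 116 CPM in AML WT, 103 and 104 in AML HET and 123, 97.7 and 91.7 in AML KO, and the groups overlapped throughout.

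**Figure D2:**
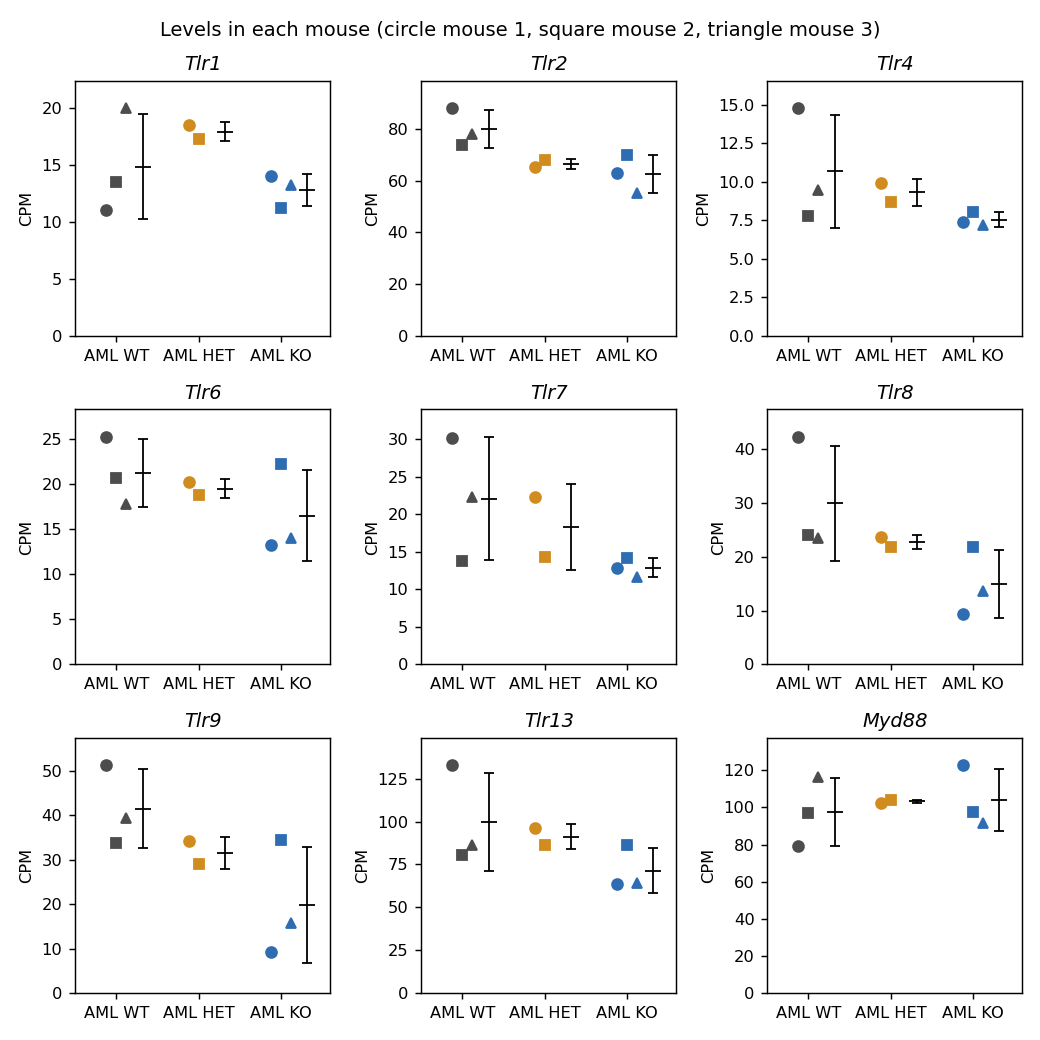
CPM (TMM-scaled, axes from 0) of the 9 genes in each mouse, by group, with the mean and SD of each group as a bar beside the points. AML KO and AML WT do not overlap for Tlr2 and Tlr8, and AML WT mouse 1 is the highest mouse for 7 of the 9 genes.

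The effect of losing both Gab2 alleles was tested between AML KO and AML WT with edgeR's quasi-likelihood test over all 13305 genes. None of the 9 genes passed the Benjamini-Hochberg adjusted threshold of 0.05, a threshold passed by 2.09% of all genes tested. At an unadjusted p under 0.05 there were 5 of the 9, Tlr2, Tlr7, Tlr8, Tlr9 and Tlr13, all lower in AML KO, and 7.88% of all genes met that criterion in that direction. The log2 fold change was negative for 8 of the 9 genes, with a median of −0.49, while the median over all genes was −0.02 and 51.9% of them were lower. AML KO lay below AML WT without overlap for 2 of the 9 genes, Tlr2 and Tlr8, and this held for 9.83% of all genes. In bulk BM, fewer cells of a type and less RNA per cell cannot be told apart.
The largest differences were those of Tlr9 and Tlr8. For Tlr9 the log2 fold change was −1.07 (standard error 0.39, 95% interval −1.95 to −0.19), with an unadjusted p of 0.0223 and an adjusted p of 0.230 from edgeR's quasi-likelihood test. Of all genes, 1.62% had a log2 fold change as low or lower. The difference of Tlr8 was −1.0 on the log2 scale (standard error 0.32, interval −1.71 to −0.29), with an unadjusted p of 0.0109 and an adjusted p of 0.177 in the same edgeR test. This corresponds to a level 2.00-fold lower in AML KO. Tlr7 followed with −0.78 (standard error 0.28, interval −1.40 to −0.16, edgeR adjusted p = 0.222). The differences of Tlr4 (−0.50, interval −1.04 to 0.04), Tlr13 (−0.49, interval −0.95 to −0.03), Tlr6 (−0.37, interval −0.86 to 0.13), Tlr2 (−0.35, interval −0.64 to −0.06) and Tlr1 (−0.21, interval −0.70 to 0.28) were smaller, with edgeR adjusted p between 0.230 and 0.603. For Myd88 it was 0.09 (standard error 0.16, interval −0.28 to 0.46, edgeR adjusted p = 0.770). Its sign depended on the scale, as the ratio of mean TPM in AML KO to AML WT was −0.16 on the log2 scale. Within a library, the factor between TPM and CPM is the same for every gene up to its length. The mean of this factor in AML KO differed by −0.26 on the log2 scale from that in AML WT. Taking out this shift leads back to about the CPM ratios, for Myd88 and the receptors alike, so that it is no separate check of the signs.
Exact two-sided permutation tests of the mean CPM gave p = 0.1 for Tlr2 and Tlr8, the smallest p possible with 3 mice against 3, p = 0.2 for Tlr4, Tlr7 and Tlr9, and p = 0.3 to 0.7 for the others.

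The result of the test depended on AML KO mouse 2. Without it, Tlr9 (log2 fold change −1.72, edgeR adjusted p = 0.0184) and Tlr8 (−1.37, edgeR adjusted p = 0.0490) passed the threshold. In the fits without a single mouse, 40 to 370 of all genes passed it, against 278 with all mice. Conversely, without AML WT mouse 1, or without AML KO mouse 3, only 1 of the 9 genes, Tlr8, had an unadjusted p under 0.05. The share of all genes at that unadjusted p was not counted in these fits. Without AML WT mouse 1 the log2 fold changes shrank to −0.20 for Tlr4, −0.24 for Tlr13, −0.23 for Tlr6, −0.50 for Tlr7 and −0.67 for Tlr8. Over the fits without a single mouse they lay between −0.68 and −0.20 for Tlr4, between −0.65 and −0.24 for Tlr13, between −0.64 and −0.23 for Tlr6 and between −1.03 and −0.50 for Tlr7. With DESeq2 in place of edgeR, 1 of the 9 passed, Tlr8 with an adjusted p of 0.0391. DESeq2 called 730 of all 13305 genes in this comparison, against 278 with edgeR.

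**Figure D3:**
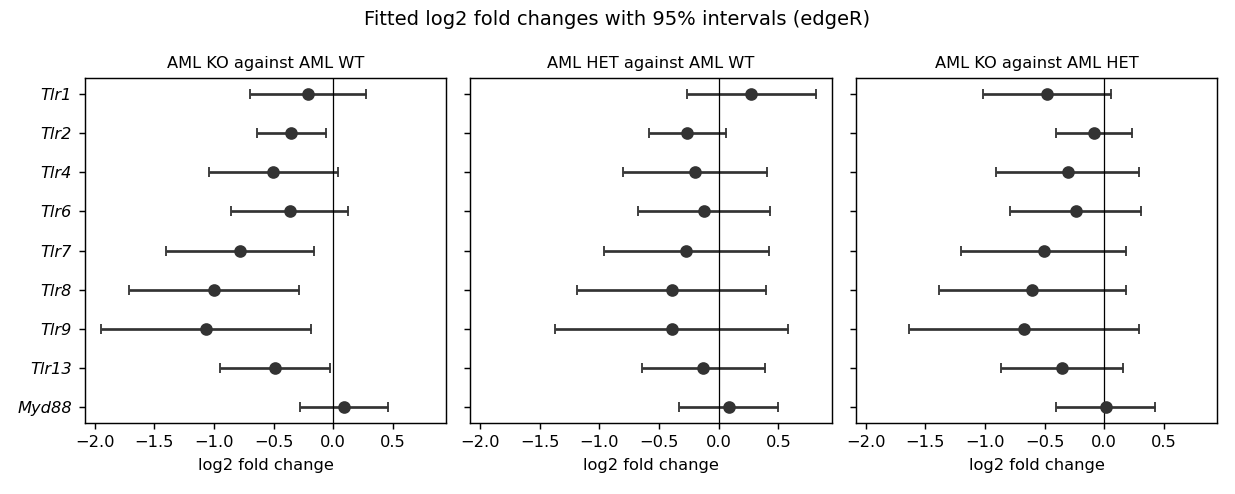
Log2 fold changes (points) and their 95% intervals (bars) from the edgeR fit for the 3 comparisons between groups, which share mice. The intervals of Tlr2, Tlr7, Tlr8, Tlr9 and Tlr13 lie below 0 between AML KO and AML WT, and every interval includes 0 in the comparisons with AML HET.

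Heterozygous loss of Gab2 was then examined. Between AML HET and AML WT 0 of the 9 genes passed edgeR's quasi-likelihood test (adjusted p = 0.990 for each), 0 had an unadjusted p under 0.05, and 0.0225% of all genes passed. DESeq2 called 0 of the 9 in this comparison as well. The log2 fold changes lay between −0.40 for Tlr8 and 0.27 for Tlr1, and 7 of the 9 were negative. AML HET mice were below AML WT without overlap for 1 gene, Tlr2, as were those at 8.61% of all genes. For Tlr2 the log2 fold change was −0.26 with a 95% interval of −0.59 to 0.06, and for Tlr9 the interval ran from −1.37 to 0.58, and both intervals include the values measured in AML KO. Without AML WT mouse 1 the log2 fold changes of Tlr4, Tlr6, Tlr7 and Tlr13 between AML HET and AML WT were positive, from 0.02 to 0.13.
Between AML KO and AML HET, again 0 of the 9 genes passed with edgeR or DESeq2, and with edgeR 0% of all genes did, while 0 of the 9 and 780 of all genes had an unadjusted p under 0.05. The log2 fold changes ran from −0.67 for Tlr9 to 0.01 for Myd88 (edgeR adjusted p 0.847 to 0.993). All AML KO mice were below both AML HET mice for 3 genes, Tlr1, Tlr4 and Tlr7, a pattern found at 11.0% of all genes.
The group means decreased in the order AML WT, AML HET, AML KO for 7 of the 9 genes, all but Tlr1 and Myd88, compared with 27.4% of all genes. In a linear fit on the number of Gab2 alleles lost, 0 of the 9 genes and 2.64% of all genes passed the adjusted threshold with edgeR. With DESeq2 1 of the 9 passed, Tlr8, and 865 of all genes did, against 351 with edgeR. An unadjusted p under 0.05 with a negative slope was found for 6 of the 9 genes, Tlr2, Tlr4, Tlr7, Tlr8, Tlr9 and Tlr13, and for 9.05% of all genes. The steepest slopes were −0.53 per allele for Tlr9 (standard error 0.19, edgeR adjusted p = 0.180) and −0.50 for Tlr8 (standard error 0.15, edgeR adjusted p = 0.132). These comparisons use the same mice and are not independent of each other.

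The variation of the receptors between mice was partly shared. Over the 8 mice, the 21 pairs among the receptors other than Tlr1 had Pearson correlations of log2 CPM between 0.64 and 0.96. Highest was the pair of Tlr8 and Tlr9 (0.96), followed by Tlr4 and Tlr13 (0.945) and by Tlr4 and Tlr7 (0.94). By ranks (Spearman's rho), Tlr8 and Tlr9 had 0.786 and Tlr4 and Tlr13 had 0.905, while Tlr4 and Tlr7 ranked the mice identically. Tlr1 correlated with those 7 receptors at −0.26 to 0.14 and Myd88 at −0.65 to −0.31. By ranks, Myd88 had −0.619 to −0.0952 with them. AML WT mouse 1 was the highest mouse for 7 of the 9 genes and the lowest for the remaining ones, Tlr1 and Myd88. AML KO mouse 1 was lowest for 4 genes and AML KO mouse 3 for 3. All points share the difference between groups and the same libraries, and the correlations are descriptive.
Over all other genes of the table, those most alike in their log2 CPM over the 8 mice were Rassf4 (r = 0.993) and Pgap1 (0.992) for Tlr8 and Cyb561a3 (0.99) and Uvrag (0.988) for Tlr9. Tlr13 was most like Zfp426 (0.992) and Hacd4 (0.984), Tlr7 like Tex10 (0.977) and Arl8b (0.976), and Tlr6 like Cat (0.99), which encodes catalase, and Slc25a44 (0.982). For Tlr4 they were Ankfy1 (0.986) and Cltc (0.979), the latter the clathrin heavy chain. For Tlr2 they were H19 (0.979), an imprinted non-coding RNA, and Abca6 (0.96), and for Tlr1 Fbxw17 (0.972) and Gm12359 (0.971). Myd88 was most like Gch1 (0.986), the first enzyme of tetrahydrobiopterin synthesis, and Psmd10 (0.981). By ranks, Tlr8 had 0.81 with Rassf4 and with Pgap1, and Tlr9 had 0.786 with Cyb561a3 and 0.976 with Uvrag. With 13305 genes and 8 mice, values of this size describe these libraries only.

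Marker lists of several blood cell types were set beside the levels of the 9 genes, and their part in the results was not tested. The 4 endosomal receptors together had 152 to 257 CPM in AML WT, 151 to 177 in AML HET and 95.1 to 157 in AML KO, with 157 in AML KO mouse 2. The monocyte list was likewise lowest in AML KO mice 1 and 3, at 5564 and 6161 CPM, and at 8742 CPM in AML KO mouse 2, within the AML WT range. The highest genes of this list were Fn1, from 697 to 3057 CPM over the mice, and F13a1, from 743 to 1942 CPM. Of its 14 genes 12 were lower in AML KO than in AML WT on the fitted log2 scale, with a median of −0.30, and 0 passed the test. Per 1000 CPM of the monocyte list, the endosomal receptors had 24.0, 17.2 and 21.5 CPM in AML WT mice 1 to 3. On this scale they had 20.3 to 22.6 CPM in AML HET and 17.1 to 17.9 in AML KO. AML KO and AML WT overlapped through AML WT mouse 2 alone, and the undivided sums overlapped as well. The 4 surface receptors had 13 to 15.7, 14.6 to 15.1 and 12.7 to 17.5 CPM on this scale.
The macrophage list, led by Mrc1 and Adgre1, summed to 359 to 434 CPM in AML WT and 231 to 352 in AML KO. The genes of this list went in both directions, as 6 of 11 were higher in AML KO, with a median log2 fold change of 0.18, Mrc1 fell (edgeR adjusted p = 0.0156) and Vcam1 rose (edgeR adjusted p = 0.0344). Its summed values were 231 in AML KO mouse 1, 352 in AML KO mouse 2 and 249 in AML KO mouse 3, in the same order as Tlr9. The list of conventional dendritic cell markers was led by the class II genes H2-Ab1 and H2-Aa. It had 1823, 2818 and 4216 CPM in AML WT mice 1 to 3 and 1132 to 1711 in AML KO. Within AML WT this list was thus lowest in mouse 1, where the endosomal receptors were highest. Of its genes, 10 of 10 had a negative log2 fold change, with 1 passing the test. Plasmacytoid dendritic cells are known for high Tlr7 and Tlr9, and their list, led by Irf8 and Pld4, summed to 1381 to 1689 CPM over all mice, most of it from these genes. However, 10 of its 12 genes were lower in AML KO than in AML WT, with a median log2 fold change of −0.23, 5 at an unadjusted p under 0.05 and 0 past the adjusted threshold of edgeR. Siglech, a defining marker, had 19.5, 13.4 and 12.5 CPM in AML WT, 12.7 and 6.85 in AML HET and 10.5, 4.08 and 7.96 in AML KO, so that AML KO lay below AML WT without overlap (log2 fold change −1.01, edgeR adjusted p = 0.222). Within AML KO, the order of the mice by Siglech was the reverse of that by Tlr9. The B cell list, led by Cd79b and Blnk, summed to 47.3 to 103 CPM. Lists of other lineages were higher in AML KO than in AML WT. The erythroid list had 339 to 471 CPM in AML WT, 738 to 2335 in AML HET and 1614 to 5617 in AML KO, and the megakaryocyte and platelet list 97.9 to 135, 137 to 179 and 346 to 469 CPM. The Y-linked Ddx3y was counted in all 8 mice, at 33.1 CPM or more, so that the X-linked Tlr7, Tlr8 and Tlr13 were not compared across sexes as far as this gene shows.

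**Figure D4:**
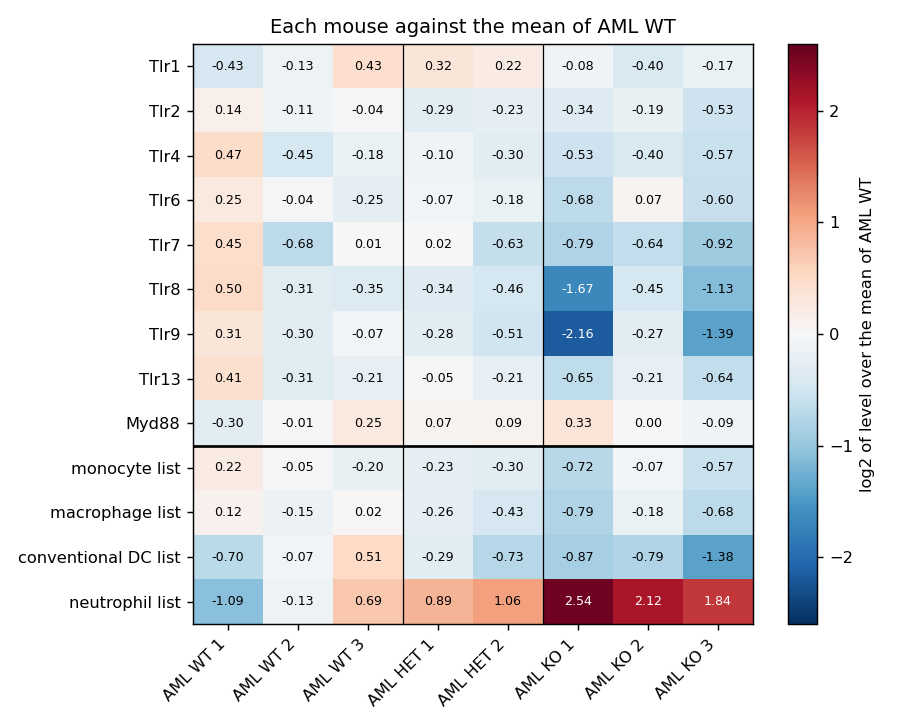
Log2 of each mouse's CPM over the mean of AML WT, for the 9 genes (upper rows) and for the summed CPM of 4 marker lists (lower rows); red is higher and blue is lower than AML WT. AML KO mice 1 and 3 are lowest for Tlr8, Tlr9 and the monocyte and macrophage lists, AML KO mouse 2 is close to AML WT in these rows, and the neutrophil list is highest in all AML KO mice.

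The pathway around these receptors was described with 90 further genes, of which 81 were in the table. Between AML KO and AML WT 3 of the 81 passed the adjusted threshold of the edgeR test, all lower in AML KO, 18 had an unadjusted p under 0.05, and 56 had a negative log2 fold change. Over all genes, 2.09% passed, 17.7% had an unadjusted p under 0.05 and 51.9% were lower. The median over the 81 was −0.17. In either comparison with AML HET 0 of the 81 passed, with 3 genes (against AML WT) and 5 genes (against AML KO) at an unadjusted p under 0.05, compared with 2.47% and 5.86% of all genes. The fit per allele called 3, and 2.64% of all genes. The other 4 TLRs of the table, Tlr3, Tlr5, Tlr11 and Tlr12, bring the TLRs measured to 12. Of these Tlr3, the endosomal receptor for double-stranded RNA, which signals without Myd88, was the only one that passed.
Tlr3 had 9.42, 8.79 and 10.1 CPM in AML WT, 9.47 and 4.81 in AML HET and 3.27, 4.44 and 2.30 in AML KO. All AML KO mice were below all others, and AML HET mouse 1 was at the level of AML WT. The log2 fold change of −1.50 (standard error 0.31, edgeR adjusted p = 0.0415) lost its significance in 5 of 8 fits without a single mouse, in which it lay between −1.77 and −1.29. Tlr11 (−1.01, edgeR adjusted p = 0.0792), Tlr5, the flagellin receptor (−0.98, edgeR adjusted p = 0.189), and Tlr12 (0.45, edgeR adjusted p = 0.289) did not pass.
The other genes that fell were Ctsk and Il1rl1. Ctsk encodes cathepsin K, a protease known best from osteoclasts and also reported to act in endosomal TLR9 signalling. It had 72.6, 64.0 and 70.5 CPM in AML WT, 23.8 and 19.0 in AML HET and 10.4, 24.5 and 8.69 in AML KO (log2 fold change −2.25, standard error 0.34, edgeR adjusted p = 0.0131). AML HET and AML KO mice were all far below AML WT and overlapped with each other. Il1rl1, the receptor for IL-33, which uses Myd88, had 11.9, 16.8 and 20.0 CPM in AML WT, 10.9 and 7.36 in AML HET and 6.83, 6.22 and 4.77 in AML KO (log2 fold change −1.45, standard error 0.25, edgeR adjusted p = 0.0208). The significance was lost in 1 of 8 fits without a single mouse for Ctsk and in 2 of 8 for Il1rl1.
In the other lists 0 genes passed, with edgeR as above. This included the 7 co-receptors, among them Cd180 (−0.54, edgeR adjusted p = 0.127) and Cd14 (−0.67, edgeR adjusted p = 0.226). It also held for the other 5 adaptors, of which Scimp (−1.72, edgeR adjusted p = 0.192) and Tirap (−0.61, edgeR adjusted p = 0.243), which bridges Tlr2 and Tlr4 to Myd88, had the smallest p. None of the 18 kinases and ligases downstream of Myd88 passed, with log2 fold changes between −0.34 for Traf3 and 0.18, and Ikbkg, the regulatory subunit of the IKK complex, had −0.21. Of the 10 transcription factors, Rel (−0.59, edgeR adjusted p = 0.222) and Irf7 (−1.28, edgeR adjusted p = 0.333) came nearest to the threshold. Irf7 varied strongly within AML WT, from 33.4 to 226 CPM, and at 34.9 to 46.5 CPM the AML KO mice lay within that range. The negative regulators had a median of 0.04, with 7 of 12 genes positive, led by Nfkbia, the inhibitor of NF-kB (0.47, edgeR adjusted p = 0.207), and with Tnfaip3 at −0.41. Of 13 TLR-induced cytokines 5 were in the table, and Ccl2 (−2.49, edgeR adjusted p = 0.206) and Ccl3 (−0.56, edgeR adjusted p = 0.208) had the smallest p, with Ccl2 at 2.33 CPM or less in every mouse. Among the remaining genes of the lists that held a called gene, Lrrc59, which associates with nucleic acid-sensing TLRs, had −0.45 (edgeR adjusted p = 0.283) and Il1rl2 −0.59 (edgeR adjusted p = 0.163).

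**Figure D5:**
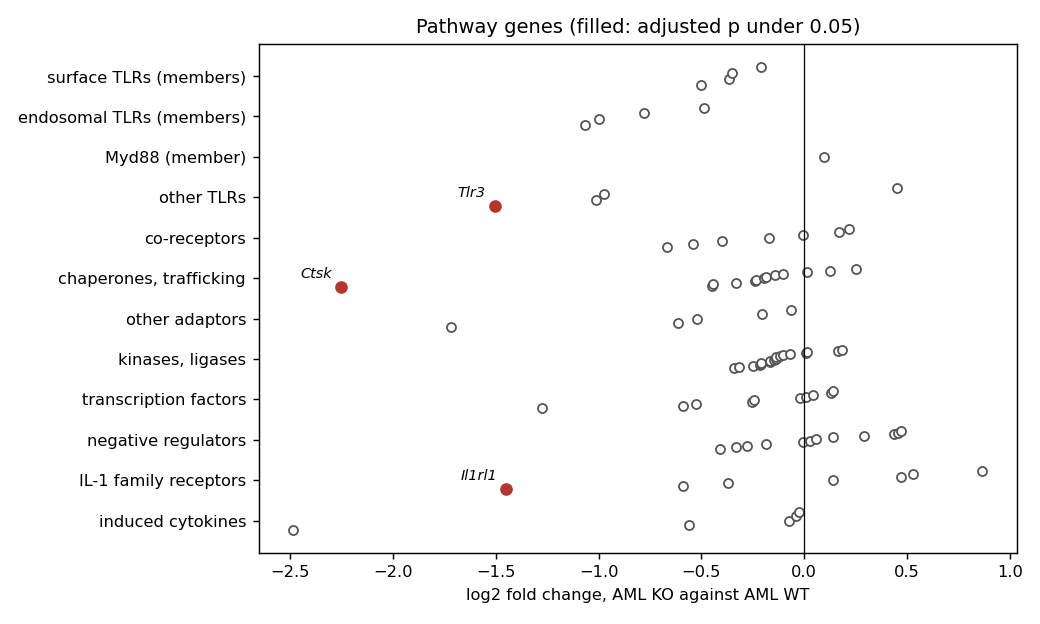
Log2 fold changes, AML KO over AML WT, of the 9 genes and the 81 further pathway genes, by list, with 1 point per gene and filled points for an adjusted p under 0.05. Only Tlr3, Ctsk and Il1rl1 are filled, and all 8 receptors among the 9 genes, surface and endosomal, lie left of 0.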

How the data were processed

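RNA of whole BM was sequenced by the authors on an Illumina HiSeq4000, giving a library for each of 8 mice (AML WT 3, AML HET 2, AML KO 3). The authors deposited raw counts of reads per gene. Per the labels' processing notes, Trimmomatic 0.36, STAR 2.5.2b and the build mm10 were used. The counter, the annotation and the use of strand are not given in the sources used here. No gene has fewer than 106 counts over the 8 libraries. Of 13305 identifiers, 13266 were found in GENCODE M21. Libraries hold 28009258 to 39266815 counts, and columns were assigned to mice by the genotype and the number in their names.

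Tests used edgeR 4.0.16 in R 4.3.3 (TMM, robust quasi-likelihood fit, genotype as the only term, all 8 mice) and Benjamini-Hochberg adjustment over all genes. The script was tested on simulated counts. Intervals are 95% t intervals of the fit. CPM use TMM library sizes. TPM use union exon lengths and are not TMM-scaled. Likeness is Pearson's r of log2 CPM with a prior count of 2. The libraries within each group differed by far more than sampling noise. The labels name separate mice.

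The 9 genes and all lists were chosen with earlier results of these data known. Named are the 9 genes, every pathway gene past the threshold and the 2 genes of each pathway list with the smallest p between AML KO and AML WT, the 2 genes most like each of the 9, the 2 highest genes of each marker list discussed and Gab2. Mpo is the highest gene of its list, and Siglech, Tlr5, Tlr12 and Acaa1a were named after their values or positions were seen. Genes of the neutrophil, erythroid and megakaryocyte lists are not named, and Vcam1 and Ddx3y were named after their values were seen.

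Alternatives were DESeq2 1.42.0, limma-voom (limma 3.58.1), 2 other normalizations (upper quartile, median of ratios), filters on low counts (at least 1 CPM in 2 mice, or filterByExpr), the mouse number as a replicate block, the compared groups alone, removal of the 10 most counted genes, a prior count of 0.5 for likeness and leaving out each mouse in turn. Figures were made with Python 3.11.15 and matplotlib 3.10.9.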

Additional observations from a re-analysis of the deposited data

How the results depend on the processing

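The number of the 9 genes called was 0 in the 4 comparisons and remained 0 under the alternatives, except between AML KO and AML WT and per Gab2 allele lost, where it was 1 (Tlr8) with DESeq2 and between 0 and 2 in the fits that left out single mice (2 without AML KO replicate 2, Tlr8 and Tlr9). Over the alternatives of AML KO against AML WT, the adjusted p ranged from 0.0391 to 0.446 for Tlr8 and from 0.0184 to 0.532 for Tlr9. Of 603 log2 fold changes of the 9 genes under alternatives, 588 kept their direction. Leaving out single mice turned the direction within these ranges: for Tlr1 −0.39 to 0.0636 and for Myd88 −0.0455 to 0.24 between AML KO and AML WT; for Tlr4 −0.38 to 0.11, Tlr6 −0.22 to 0.0229, Tlr7 −0.63 to 0.0254, Tlr13 −0.26 to 0.13 and Myd88 −0.0424 to 0.24 between AML HET and AML WT; for Myd88 −0.12 to 0.0940 between AML KO and AML HET and −0.0216 to 0.11 per allele. Myd88 between AML KO and AML HET also turned with limma-voom (−0.0011) and with the replicate block (−0.0135). The causes were not tested. The counts of all genes called moved by over 1.5 times with DESeq2, from 278 to 730 (AML KO against AML WT), 3 to 59 (AML HET against AML WT), 0 to 77 (AML KO against AML HET) and 351 to 865 (per allele). With limma-voom the second was 1, and with the compared groups alone the second was 5 and the third 3. Without single mice the counts were 40 to 370, 1 to 5, 0 to 4 and 137 to 525. Of the 81 pathway genes, 6 were called between AML KO and AML WT with DESeq2 and 0 to 4 without single mice, against 3.

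With the mouse number as a replicate block, 0 of the 9 genes were called in each comparison, and 19, 0, 0 and 125 of all genes. Of the 81 pathway genes 0 were then called, against 3 without the block (adjusted p with the block 0.156 for Tlr3, 0.128 for Il1rl1 and 0.0776 for Ctsk). The labels do not say that mice of the same number belong together. The deviations of same-numbered AML KO and AML WT mice from their group means correlated at −0.509, −0.109 and −0.131. Within a group these deviations cancel out, which forces some of the correlations to be low or negative. The correlations therefore cannot decide whether mice of the same number belong together. Across the 8 mice, not every sample correlated best with its own number.

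With 2 or 3 mice per group, the intervals include changes of considerable size for most of the 9 genes. Whole BM holds many cell types, so that the cells in which a receptor was transcribed were not measured.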
